A study of Mus musculus with 9 samples.

Results

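Collagens that do not form banded fibrils were followed as a set of 10 genes among the 24532 genes of a mouse liver expression table. They are the type IV chains Col4a1 and Col4a2, the multiplexins Col15a1 and Col18a1, the short-chain collagen gene Col8a1, the type VI chains Col6a1, Col6a2 and Col6a3, and the fibril-associated collagens Col12a1 and Col14a1. The members were chosen by name, all 10 were found in the table, and all 10 were among the 14731 genes that passed the filter on low counts.

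The livers came from wild-type C57BL/6 mice that all received escalating doses of thioacetamide (TAA), a toxin bioactivated in hepatocytes that produces fibrosis, by intraperitoneal injection 2 times a week for 10 weeks. The 3 groups have 3 libraries each. The TAA group received saline (replicates 12, 13 and 14), while the other mice were given rhCYGB, recombinant human cytoglobin, a heme protein of the globin family, intravenously at 2 mg/kg, 2 times a week, during the last 2 weeks (replicates 17, 18 and 19) or the last 5 weeks (replicates 23, 27 and 28) of TAA. Mice were killed 2 days after the final rhCYGB dose. No ages are given, and livers without TAA were not analysed here. Whether different replicate numbers are different mice is not stated, and the spread that p-values are based on is that between these libraries.

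Type IV collagen is the network-forming collagen of basement membranes, built in most tissues from a pair of Col4a1 chains and a single Col4a2 chain per trimer. The space between sinusoidal endothelium and hepatocytes normally lacks a continuous basement membrane, and deposition of type IV collagen and laminin there is a known feature of liver fibrosis. Type VI collagen forms beaded filaments next to cells, type VIII forms short networks around vessels, types XII and XIV sit on the surface of collagen fibrils, and types XV and XVIII carry glycosaminoglycan chains at the edge of basement membranes. The C-terminal fragment of type XVIII collagen is endostatin, and hepatocytes are a known source of type XVIII collagen in liver.

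Libraries held 55655727 to 87289945 estimated reads. Replicates 17, 18 and 23 lay furthest out on the first principal component, which held 32.3% of the variance. Their scores were -39.4, -44.1 and 78.8, against -20.5 to 20.2 for the other 6 libraries, so log2 changes are also given without them. Levels below are CPM, counts scaled to library size by TMM, unless FPKM is named. FPKM is the authors' value, which divides by transcript length and carries no TMM factor. Levels of different genes are ranked by FPKM only. Ratios of paired genes are also given from counts, and marker sums from CPM, without length scaling. A gene is called changed when edgeR's quasi-likelihood test gave a Benjamini-Hochberg adjusted p under 0.05 over all tested genes. In whole liver, fewer cells of a type and less RNA per cell cannot be told apart.

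The Col4a1 and Col4a2 genes lie head to head on mm10 chromosome 8 (11198423 to 11312826, minus strand, and 11312805 to 11449287, plus strand). Their annotated first exons overlap by 22 bases, the capitals in the RefSeq sequence (GRCm38.p6, chr8:11312801-11312830, plus strand) below. It is shown because the chains of this pair were the most alike of all members in these libraries, as given further down.
Col4a1 and Col4a2 starts: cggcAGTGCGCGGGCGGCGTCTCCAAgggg

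Col18a1 (chromosome 10, minus strand) has a pair of annotated starts 52825 bases apart, and the 250 bases before each are shown because nearly all of its reads were assigned to only the downstream start. Capitals mark matches to 6 short motifs searched on both strands, namely the TATA box (TATAAA), the CCAAT box (CCAAT), the GC box (GGGCGG), the AP-1 motif (TGANTCA), the SMAD box (CAGACA) and a forkhead motif (TGTTTAC), none of which overlap in the windows shown. The downstream window lies at chr10:77113706-77113955 and the upstream window at chr10:77166531-77166780 (GRCm38.p6, minus strand).
Col18a1 downstream start: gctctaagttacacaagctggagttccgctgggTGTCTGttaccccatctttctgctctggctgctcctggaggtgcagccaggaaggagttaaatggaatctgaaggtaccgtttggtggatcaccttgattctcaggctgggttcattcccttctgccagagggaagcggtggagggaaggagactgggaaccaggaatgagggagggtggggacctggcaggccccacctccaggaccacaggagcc
Col18a1 upstream start: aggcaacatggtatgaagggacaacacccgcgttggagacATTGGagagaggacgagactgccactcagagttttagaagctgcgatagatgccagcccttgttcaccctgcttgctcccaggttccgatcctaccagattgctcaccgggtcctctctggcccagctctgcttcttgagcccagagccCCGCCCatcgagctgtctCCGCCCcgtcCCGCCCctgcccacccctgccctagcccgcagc

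The window before the Col8a1 start, the member with the largest log2 change in the edgeR fit, is at chr16:57754738-57754987 (minus strand, same build and same capitals).
Col8a1 start: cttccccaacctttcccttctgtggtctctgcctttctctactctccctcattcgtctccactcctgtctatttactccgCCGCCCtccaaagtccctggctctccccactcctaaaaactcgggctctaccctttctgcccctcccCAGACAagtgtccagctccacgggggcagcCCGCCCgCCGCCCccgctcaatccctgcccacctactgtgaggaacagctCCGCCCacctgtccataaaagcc

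RefSeq held 10 such windows for 8 members (none matched for Col12a1 and Col14a1). The upstream Col18a1 window holds 3 GC boxes and 1 CCAAT match, and the downstream window holds neither motif and 1 SMAD box. The Col8a1 window holds 4 GC boxes and 1 SMAD box. Of 32536 windows of the same length, 33.0% hold a GC box, 33.8% a CCAAT match, 17% a SMAD box, 12.3% a TATA box, 6.7% an AP-1 match and 3.2% a forkhead match. The only AP-1 match among the member windows lies 90 bases before the Col6a1 start, the only forkhead match lies 211 bases before the same start, and none of the 10 windows holds TATAAA. These matches describe the letters only.

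Scaled by length, Col18a1 dominated the set. Its FPKM was 127, 117 and 101 in TAA replicates 12, 13 and 14. Next came Col4a1 (20.3 ± 0.671 FPKM, SD, n = 3), Col4a2 (16.3 ± 1.02), Col6a1 (10.8 ± 1.88), Col6a2 (9.65 ± 2.43), Col14a1 (9.49 ± 0.807), Col6a3 (7.37 ± 0.232) and Col15a1 (4.34 ± 0.347). Col12a1 (0.748 ± 0.0751) and Col8a1 (0.743 ± 0.161) were lowest. The steps from Col6a1 to Col6a2, from Col6a2 to Col14a1 and from Col12a1 to Col8a1 were smaller than the spread between libraries.

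The summed FPKM of the 9 members other than Col18a1 was 84.6, 74.8 and 80.2 in TAA replicates 12, 13 and 14. It was 26.1, 42.6 and 32.7 after 2 weeks (replicates 17, 18 and 19) and 24.3, 30.4 and 47.6 after 5 weeks (replicates 23, 27 and 28). Every rhCYGB library lay below every TAA library in this sum. On the log2(FPKM + 1) scale the median change of all genes was -0.202 at 2 weeks and -0.126 at 5 weeks. With 0.1 added in place of 1 it was -0.332 and -0.205. The size of this drop thus depends on the scale. Col18a1 accounted for 55.7 to 61.0% of the members' FPKM in TAA, against 75.0 to 80.5% at 2 weeks and 74.0 to 85.3% at 5 weeks. Its own FPKM in the rhCYGB groups (108 to 127 and 114 to 141) overlapped that of TAA. The CPM of Col18a1 did not overlap, at 512 to 654 in TAA, 657 to 807 at 2 weeks and 712 to 823 at 5 weeks.

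**Figure D1:**
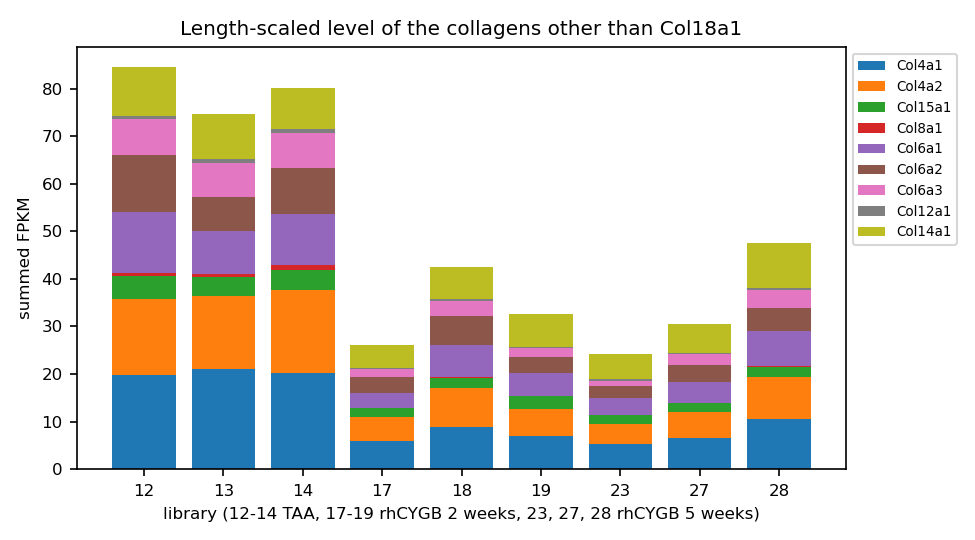
Stacked bars give the FPKM of 9 members, all but Col18a1, in each of the 9 libraries (numbers on the x axis are replicate numbers, y axis summed FPKM). The TAA bars reach 74.8 to 84.6 and the rhCYGB bars 24.3 to 47.6.

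At 2 weeks against TAA, 4 of 10 members fell, Col4a1, Col8a1, Col12a1 and Col15a1, and none rose. Over all genes 3.31% were called, 1.34% lower and 1.98% higher. Libraries of the 2 groups did not overlap for 9 members, 8 of them lower and Col18a1 higher, where 16.3% of all genes were lower and 17.3% higher without overlap. The median member log2 change was -0.87, against -0.03 over all genes. At 5 weeks against TAA the same 4 genes fell (1.29% of all genes were called, 0.604% lower and 0.686% higher), none rose, and 8 members lay lower and Col18a1 higher without overlap (13.4% and 11.6% of all genes). The median was -1.15 against 0.01 over all genes. Both comparisons use the same 3 TAA libraries, so they are not independent of each other.

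**Figure D2:**
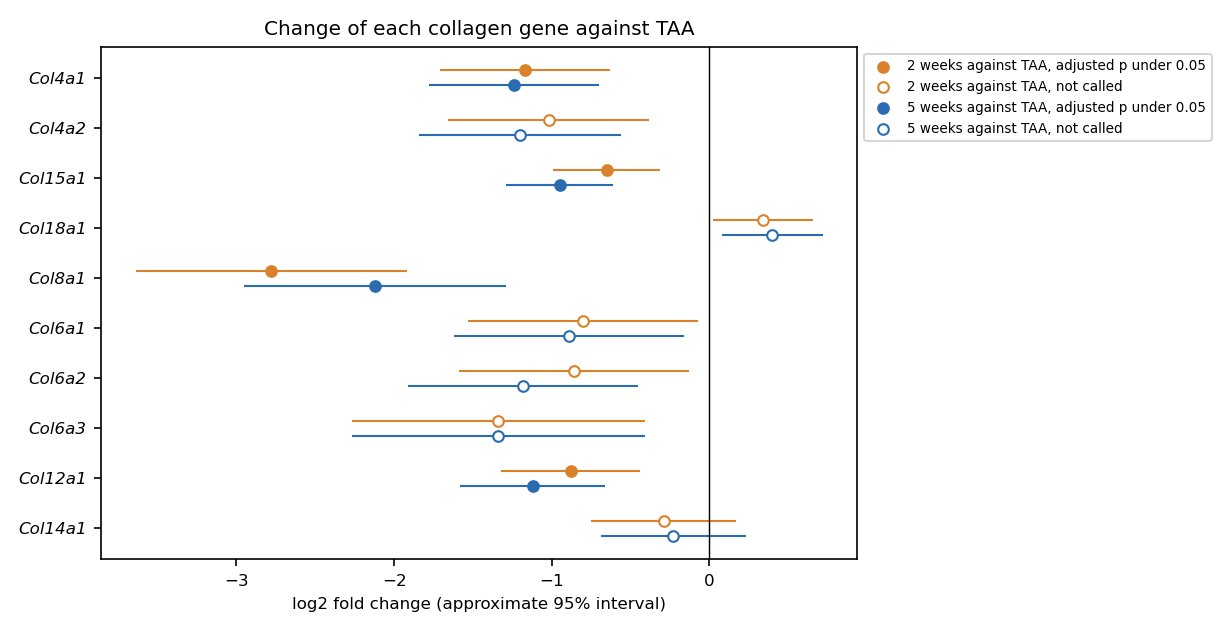
Points give the log2 fold change of each member against TAA after 2 weeks (orange) and 5 weeks (blue) of rhCYGB, and bars an approximate 95% interval from the SE (n = 3 libraries per group). Filled points passed adjusted p under 0.05. Col8a1 lies furthest to the left at -2.78 and -2.12, and Col18a1 is the only gene to the right of 0.

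Col4a1 (gene ID 12826) stood at 119.6, 119.7 and 121 CPM in TAA replicates 12, 13 and 14, at 46.5, 65.4 and 48.3 CPM after 2 weeks (replicates 17, 18 and 19) and at 36.8, 47.3 and 68.6 CPM after 5 weeks (replicates 23, 27 and 28). The TAA libraries were nearly equal, and no rhCYGB library came near them. Col4a1 fell by 1.17 ± 0.22 on the log2 scale at 2 weeks (SE, edgeR adjusted p = 0.0295) and by 1.24 ± 0.22 at 5 weeks (adjusted p = 0.0427). Without each library in turn the change stayed between -1.34 and -1.08 at 2 weeks and between -1.52 and -1.07 at 5 weeks.

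Col4a2 (gene ID 12827), the partner chain, had 95.1, 85.6 and 101 CPM in TAA, 40.3, 60.7 and 38.5 CPM after 2 weeks and 27.1, 40.1 and 55.3 CPM after 5 weeks. Groups were fully apart, with replicates 18 and 28 the highest rhCYGB libraries, as for Col4a1. The log2 changes of -1.02 ± 0.26 (edgeR adjusted p = 0.0590) and -1.20 ± 0.26 (adjusted p = 0.0573) did not pass the threshold. Their approximate 95% intervals ran from -1.66 to -0.38 and from -1.84 to -0.56. DESeq2 called Col4a2 lower at both times (DESeq2 adjusted p = 0.00293 and 0.000419). Over all genes DESeq2 called 694 of 14232 lower at 2 weeks and 527 of 15281 at 5 weeks. Whether the chains differed in response was tested as their ratio. The log2 ratio of Col4a1 to Col4a2 counts within a library was 0.36 ± 0.12 in TAA, 0.21 ± 0.11 after 2 weeks and 0.33 ± 0.10 after 5 weeks (SD, n = 3, exact permutation test over 1680 assignments of libraries to groups, p = 0.296, adjusted p = 0.296 over 6 ratios). In FPKM the ratio was 1.05 to 1.36 in the 9 libraries. Exon annotation adds an antisense gene, Gm15419, over 43 exonic bases of Col4a2, and how reads were assigned by strand is not given in the sources used here.

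Col15a1 (gene ID 12819, chromosome 4, 47208012 to 47313165), a multiplexin of the outer basement membrane, had 23, 18.4 and 20.5 CPM in TAA, 11.3, 12.8 and 15.3 CPM after 2 weeks, and 10.7 CPM in every 5-week library. All 3 groups were apart from each other. It fell by 0.65 ± 0.14 at 2 weeks (edgeR adjusted p = 0.0432) and by 0.95 ± 0.14 at 5 weeks (adjusted p = 0.0361), and the difference between the rhCYGB groups was -0.29 ± 0.14 (adjusted p = 0.240). An antisense gene, Gm12426, shares 14 exonic bases with it.

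Col18a1 (gene ID 12822), the other multiplexin, moved differently. Its CPM was 654, 565 and 512 in TAA, 733, 807 and 657 after 2 weeks and 823, 712 and 747 after 5 weeks. The rhCYGB libraries all lay above the TAA libraries, with replicate 19 only just above replicate 12. Log2 changes of 0.34 ± 0.13 (edgeR adjusted p = 0.159) and 0.40 ± 0.13 (adjusted p = 0.149) were not called. With scaling by library totals alone, which moved the median of all genes by -0.33 at 2 weeks and -0.22 at 5 weeks, they were 0.01 and 0.18, so the size of this difference depends on the scale. The same shifts apply to the list medians given further down. The hepatocyte marker list held 15 tested genes with medians of 0.32 at 2 weeks and 0.27 at 5 weeks, and its part in the Col18a1 difference was not tested.

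Ratios within a library do not depend on scaling. The log2 ratio of Col15a1 to Col18a1 counts was -4.83, -4.94 and -4.64 in TAA, -6.02, -5.98 and -5.43 after 2 weeks, and -6.26, -6.05 and -6.12 after 5 weeks. TAA lay above both rhCYGB groups without overlap (exact permutation test, p = 0.00357, the smallest that 1680 assignments can give here, adjusted p = 0.0214 over 6 ratios). Without TAA replicate 14 the adjusted p was 0.0964, without 5-week replicate 27 it was 0.0643, and over single libraries left out it was otherwise under 0.05. The log2 ratio of Col18a1 to Col4a1 was 2.26 ± 0.18 in TAA, 3.79 ± 0.18 after 2 weeks and 3.95 ± 0.52 after 5 weeks (SD, n = 3, exact permutation p = 0.0286, adjusted p = 0.0857). As FPKM, Col18a1 was 5.65 ± 0.730 times Col4a1 in TAA, 16.4 ± 2.03 times after 2 weeks and 18.9 ± 6.83 times after 5 weeks.

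**Figure D3:**
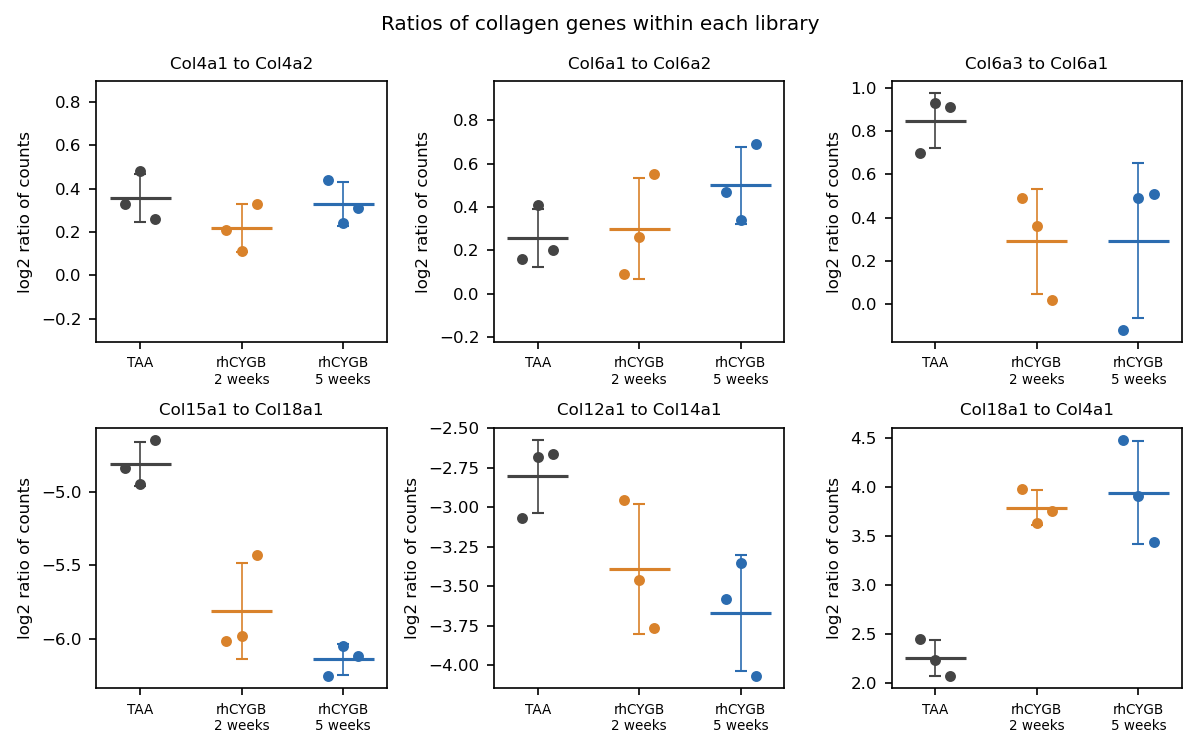
Points are the log2 ratio of counts of a pair of members in each library, lines are group means and bars are SD (n = 3 per group, each panel has its own y axis). Col15a1 to Col18a1 lies at -4.94 to -4.64 in TAA and at or below -5.43 in the rhCYGB libraries, while Col4a1 to Col4a2 stays between 0.11 and 0.48.

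Transcripts starting at the upstream Col18a1 start made up little of the gene. Their share of Col18a1 FPKM was 0.720, 0.0339 and 0.1% in TAA replicates 12, 13 and 14, 0.0169, 0.0331 and 0.945% in replicates 17, 18 and 19, and 0.0845, 0.0550 and 1.47% in replicates 23, 27 and 28. A single library per group held most of these reads, and the groups overlapped (exact permutation p = 0.789, adjusted p = 1.00 over 4 genes). The Col18a1 level and its difference between groups are thus those of the transcript from the downstream start (NM_001109991, 5628 bases). For Col6a2 the second transcript took 3.61 to 5.93% in TAA, against 5.72 to 9.07% at 2 weeks and 5.19 to 15.4% at 5 weeks (exact permutation p = 0.132, adjusted p = 0.5). Each of the 9 libraries was left out in turn. Without 5-week replicate 27, the lowest of its group (5.19%, against 13.7 and 15.4%), its exact permutation adjusted p was 0.0286. That value rests on a single omission, and with all libraries the test was not passed.

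Transcript assignments of Col4a1 and Col6a3 differed between libraries. All 5159 Col4a1 reads of replicate 18 were assigned to the noncoding variant NR_133670, which is 6632 bases long against 6615 for the coding transcript, and at most 5 reads were so assigned in any other library. For Col6a3 the shorter variant (NM_001243009, 9020 bases) took 67.6% of FPKM in TAA replicate 13 and 0 to 1.28% elsewhere. The Col6a3 FPKM of that library (7.14, against 7.60 and 7.38) is therefore computed mainly over another length, with 2548 reads on the shorter and 1466 on the longer transcript. The CPM values, edgeR and DESeq2 tests and count ratios of both genes use gene counts. Their FPKM values, in the ranking, the sums and the limma fits, carry these assignments. The coefficient of variation of Col6a3 in TAA was 3.15% as FPKM and 12.8% as CPM.

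Col8a1 (gene ID 12837, chromosome 16, 57624256 to 57754737), a chain of the short network collagen of vessel walls, showed the largest log2 change of the set in the edgeR fit. Its counts were 224, 171 and 298 reads in TAA, 15, 46 and 32 after 2 weeks and 40, 34 and 70 after 5 weeks, or 2.51 to 4.09, 0.310 to 0.584 and 0.617 to 1.07 CPM. The highest rhCYGB library lay below the lowest TAA library, and all 5-week libraries lay above all 2-week libraries. Col8a1 fell by 2.78 ± 0.35 at 2 weeks (6.85-fold, edgeR adjusted p = 0.0161) and by 2.12 ± 0.34 at 5 weeks (4.36-fold, adjusted p = 0.0361). On the log2(FPKM + 1) scale, which understates the change of low genes, limma gave Col8a1 -0.68 and -0.60. Those changes were smaller than for Col4a1 (-1.40 and -1.38) and Col6a3 (-1.41 and -1.36). On log2(FPKM + 0.1) Col8a1 again had the largest change, -2.17 and -1.78, followed by Col6a3 at -1.74 and -1.71. Its rank in FPKM thus depends on the amount added before the log. The difference between 5 and 2 weeks was 0.65 ± 0.35 (adjusted p = 0.269). Its partner chain gene Col8a2 had 1.15 ± 0.359 CPM in TAA and 0.302 ± 0.0368 CPM after 5 weeks (log2 change -1.93 ± 0.43, adjusted p = 0.0602), with -1.33 ± 0.42 at 2 weeks (adjusted p = 0.102).

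Type VI collagen had lower group means after rhCYGB and was not called by edgeR. DESeq2 called Col6a2 and Col6a3 lower at 2 weeks (DESeq2 adjusted p = 0.0429 and 0.00452). At 5 weeks it called Col6a1, Col6a2 and Col6a3 lower (adjusted p = 0.0484, 0.00445 and 0.00599). DESeq2 called more genes than edgeR, with 694 of 14232 lower at 2 weeks and 527 of 15281 at 5 weeks. Col6a3 (gene ID 12835, chromosome 1, 90766860 to 90843971), the large chain, had 75.6, 59.0 and 72.2 CPM in TAA, 22.2, 39.2 and 20.3 CPM after 2 weeks and 13.1, 26.8 and 41.5 CPM after 5 weeks. All rhCYGB libraries lay below all TAA libraries, and the 5-week libraries spread widely among themselves. Its log2 change was -1.34 ± 0.38 in both comparisons (edgeR adjusted p = 0.0793 at 2 weeks and 0.105 at 5 weeks, approximate 95% interval -2.27 to -0.41).

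Col6a1 (gene ID 12833, chromosome 10, 76708792 to 76726044) had 46.7, 30.9 and 38.4 CPM in TAA, 15.8, 30.4 and 20.1 CPM after 2 weeks and 14.2, 19.1 and 29.2 CPM after 5 weeks. All rhCYGB libraries lay below TAA, with replicate 18 just under TAA replicate 13. The log2 changes were -0.80 ± 0.30 (edgeR adjusted p = 0.151) and -0.89 ± 0.30 (adjusted p = 0.155). Col6a2 (gene ID 12834), whose gene lies next to it, had 41.8, 23.3 and 33.3 CPM in TAA, 14.8, 25.5 and 13.7 CPM after 2 weeks and 10.2, 15.1 and 18.1 CPM after 5 weeks. It overlapped TAA at 2 weeks through replicate 18. Its log2 changes were -0.86 ± 0.30 (adjusted p = 0.131) and -1.18 ± 0.30 (adjusted p = 0.0837).

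The log2 ratio of Col6a1 to Col6a2 was 0.26 ± 0.13, 0.30 ± 0.23 and 0.50 ± 0.17 in TAA, 2 weeks and 5 weeks (SD, n = 3, exact permutation p = 0.286, adjusted p = 0.296). That of Col6a3 to Col6a1 was 0.70, 0.93 and 0.91 in TAA, 0.49, 0.36 and 0.02 after 2 weeks, and -0.12, 0.49 and 0.51 after 5 weeks. TAA lay above the other groups without overlap in this ratio, with an exact permutation p of 0.0857 (adjusted p = 0.129). Without 5-week replicate 23, the lowest library at -0.12, the exact permutation adjusted p was 0.0429. That value too rests on leaving out a single library.

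Col12a1 (gene ID 12816, chromosome 9, 79598987 to 79718722), a long fibril-associated collagen, had 7.22, 8.27 and 7.97 CPM in TAA, 4.77, 4.52 and 3.47 CPM after 2 weeks and 3.04, 4.19 and 3.58 CPM after 5 weeks. TAA lay above all rhCYGB libraries. It fell by 0.88 ± 0.18 (edgeR adjusted p = 0.0392) and by 1.12 ± 0.19 (adjusted p = 0.0379). Col14a1 (gene ID 12818, chromosome 15, 55307750 to 55520803), its relative in the same class, had 60.6, 53.2 and 50.3 CPM in TAA, 36.9, 49.9 and 47.2 CPM after 2 weeks and 36.4, 42.9 and 60.1 CPM after 5 weeks.

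Col14a1 overlapped TAA at 5 weeks through replicate 28 and lay just below it at 2 weeks. Its log2 changes were -0.29 ± 0.19 (edgeR adjusted p = 0.381, approximate 95% interval -0.75 to 0.17) and -0.23 ± 0.19 (adjusted p = 0.553, interval -0.69 to 0.23). Single libraries moved these values, to -0.17 at 2 weeks without replicate 17, and to -0.10 without replicate 23 and -0.47 without replicate 28 at 5 weeks (edgeR adjusted p = 0.729, 0.859 and 0.242). With the length trend removed the 2-week value was -0.07 (adjusted p = 0.882). The log2 ratio of Col12a1 to Col14a1 was -2.80 ± 0.23, -3.39 ± 0.41 and -3.67 ± 0.37 (SD, n = 3, exact permutation p = 0.0857, adjusted p = 0.129), and the TAA and 2-week libraries overlapped.

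**Figure D4:**
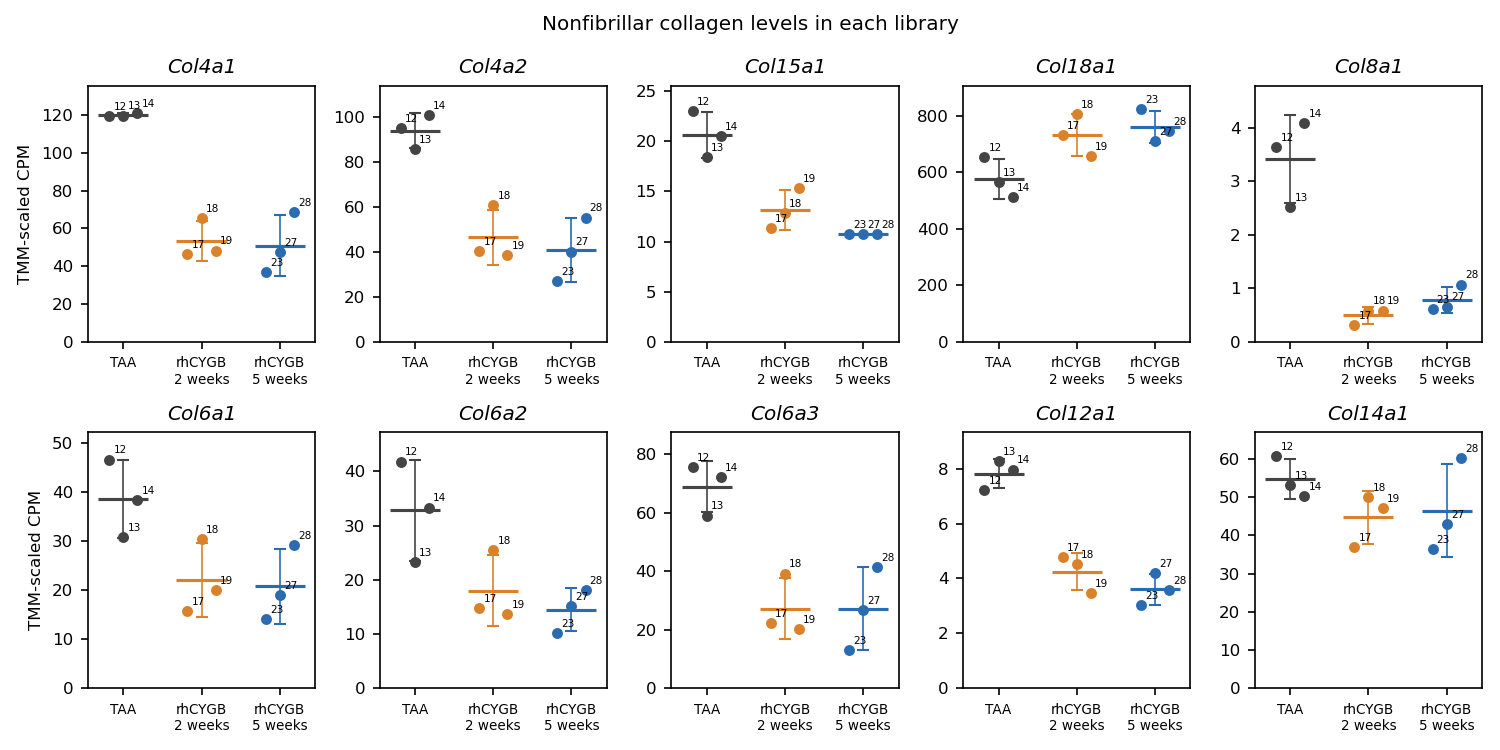
Each panel shows one member in all 9 libraries as TMM-scaled CPM (y axes start at 0), points are libraries labelled by replicate number, lines are group means and bars are SD (n = 3). Col4a1 lies at 119.6 to 121 CPM in TAA and at 36.8 to 68.6 CPM in the rhCYGB libraries, whereas Col18a1 lies at 512 to 654 CPM in TAA and 657 to 823 CPM in the rhCYGB libraries.

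Comparing rhCYGB 5 weeks with 2 weeks asks whether a longer course gave other levels. None of the 10 members was called by edgeR (0.0204% of all genes were, 0.00679% lower and 0.0136% higher). None had an unadjusted edgeR p under 0.05 (the lowest was 0.0707), where 3421 of all 14731 tested genes did. DESeq2 called none of the members, against 756 of 13185 genes. Log2 differences ran from -0.32 for Col6a2 to 0.65 for Col8a1, with a median of -0.08 against -0.01 over all genes. The approximate 95% intervals were wide, from -0.61 to 0.47 for Col4a1 and from -0.94 to 0.92 for Col6a3. Groups did not overlap for Col15a1 (lower at 5 weeks, as for 10.2% of all genes) and Col8a1 (higher, as for 10.9%).

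Most members had the same highest library within each rhCYGB group. Replicate 18, the deepest library, was highest of the 2-week group for 7 of 10 members, while replicates 17 and 19 were each lowest for 5. Replicate 28 was highest of the 5-week group for 7, and replicate 23 was lowest for 8. In TAA, replicate 12 was highest for 6 members and replicate 13 lowest for 6. Coefficients of variation of the type IV and VI genes were 0.688 to 28.1% in TAA, against 19.5 to 38.2% at 2 weeks and 27.5 to 52.2% at 5 weeks. Col6a2 had 28.1% in TAA and 27.5% at 5 weeks. In TAA, 2 weeks and 5 weeks, Col8a1 had 23.8, 32.1 and 31.8%, Col12a1 6.95, 16.3 and 16.0%, and Col14a1 9.80, 15.3 and 26.4%. Col18a1 went the other way, with 12.4, 10.2 and 7.43%, and Col15a1 had 11.2, 15.4 and 0.0264%. Beside this, replicate 23 also had the lowest summed CPM of its group for markers of vascular endothelium (148 against 247 and 216), cholangiocytes (275 against 468 and 519), stellate cells (341 against 554 and 559), sinusoidal endothelium (237 against 284 and 277), portal fibroblasts and mesothelium (21.2 against 55.4 and 56.4) and myofibroblasts (182 against 467 and 515). It was not the lowest for markers of smooth muscle and pericytes (102 against 87.0 and 114) or of hepatocytes (131913 against 166998 and 131152). These sums are not separate observations, since the lists share genes (Spp1 in the myofibroblast and cholangiocyte lists, Krt19 and Krt7 in the portal and cholangiocyte lists, Cd34 in the portal and vascular lists, Des in the stellate and smooth muscle lists, and Eln, Fbln2 and Thy1 in the portal and myofibroblast lists). The part of these markers in the member levels of replicate 23 was not tested.

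Most calls were lost when single libraries were left out. At 2 weeks the number of members called lower was 1, 0 and 0 without TAA replicates 12, 13 and 14, it was 0, 0 and 2 without 2-week replicates 17, 18 and 19, and it was 6, 4 and 2 without 5-week replicates 23, 27 and 28. At 5 weeks it was 3 without replicate 27 and 0 without any other single library. For the 4 called genes the log2 changes kept their sign, while the adjusted p ranged from 0.0122 to 0.178 at 2 weeks and from 0.0298 to 0.165 at 5 weeks. Leaving out replicates 17, 18 and 23 together leaves replicate 19 alone at 2 weeks, so only sizes of change are given for that fit. The log2 changes at 2 and 5 weeks were then -1.31 and -1.05 for Col4a1, -2.54 and -1.97 for Col8a1, -1.17 and -1.01 for Col12a1, and -0.43 and -0.94 for Col15a1.

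Member transcripts are long, 3729 to 11719 bases for the gene's main transcript, and genes of 3000 bases or more had a median log2 change of -0.19 at 2 weeks and 0.04 at 5 weeks. With the trend over length removed from each library, 1 member was called lower at 2 weeks, Col8a1 (-2.61 ± 0.37, edgeR adjusted p = 0.0161). There Col4a1 had -0.94 ± 0.27 (adjusted p = 0.0786), Col12a1 -0.62 ± 0.27 (adjusted p = 0.207) and Col15a1 -0.47 ± 0.15 (adjusted p = 0.115), and Col18a1 had 0.56 ± 0.13 (adjusted p = 0.0508). At 5 weeks all 4 calls remained after this step, with Col4a1 at -1.29 ± 0.27 (adjusted p = 0.0381) and Col12a1 at -1.21 ± 0.27 (adjusted p = 0.0473).

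Other basement membrane genes, a list of 29 tested laminins, nidogens, proteoglycans and linked proteins, were read beside the type IV chains. Over all 14731 tested genes, 3453 had an unadjusted edgeR p under 0.05 at 2 weeks and 2829 at 5 weeks. DESeq2 called 1662 of 14232 genes at 2 weeks and 1127 of 15281 at 5 weeks. List counts of these kinds are to be read against those shares. At 2 weeks edgeR called 2 lower and 27 not (median -0.48 against -0.03 over all genes). Nid1, nidogen 1, which links laminin to type IV collagen, fell by 0.75 ± 0.15, from 90.1 ± 9.90 to 53.5 ± 3.05 CPM (SD, n = 3, adjusted p = 0.0327). Lamc1, the common laminin gamma chain, fell by 0.54 ± 0.12 (adjusted p = 0.0427), from 38.1 ± 2.73 to 26.2 ± 0.670 CPM. At 5 weeks 0 of 29 were called by edgeR, 11 had an unadjusted p under 0.05 and DESeq2 called 4 lower (median -0.40 against 0.01). Pxdn, the peroxidase that crosslinks type IV collagen, had the lowest p, with 8.21 ± 1.17 against 14.2 ± 1.68 CPM (log2 change -0.79 ± 0.18, adjusted p = 0.0666).

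Among 15 tested nonfibrillar collagen genes outside the set, edgeR called 0 at either time, 6 had an unadjusted p under 0.05 at 2 weeks and 3 at 5 weeks, and DESeq2 called 4 and 1 (medians -0.50 and -0.41). Col20a1, a fibril-associated collagen, had the lowest p at 2 weeks with a log2 change of 0.98 ± 0.25 (adjusted p = 0.0606), at 3.14 ± 0.606 against 1.59 ± 0.232 CPM. Of the 9 tested fibrillar collagen genes, given for comparison, 3 fell and 1 rose at 2 weeks and 3 fell at 5 weeks (medians -1.61 and -1.72). The gene that rose was Col5a3 (log2 change 0.89 ± 0.17, adjusted p = 0.0336), while Col5a1, Col5a2 and Col1a2 fell.

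Of 17 collagen and laminin receptor genes only Itga6, the laminin-binding integrin alpha 6 chain, was called. It fell by 0.96 ± 0.15 at 2 weeks (edgeR adjusted p = 0.0240) and by 0.86 ± 0.15 at 5 weeks (adjusted p = 0.0394), its level being 9.72 ± 0.665 CPM in TAA, 5.00 ± 0.626 CPM at the earlier and 5.35 ± 0.269 CPM at the later time (SD, n = 3). List medians were -0.47 and -0.39. Among 24 genes of collagen folding and secretion the median was -0.13 at 2 weeks, with Plod2, a lysyl hydroxylase, lower (-1.11 ± 0.21, adjusted p = 0.0295) and P4ha2, a prolyl hydroxylase subunit, higher (0.62 ± 0.14, adjusted p = 0.0473). At 5 weeks the median was -0.20 and the collagen chaperone Fkbp10 fell by 1.76 ± 0.33 (adjusted p = 0.0467).

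Markers of cells that make these collagens were read beside them. Of 15 myofibroblast markers 3 fell at each time (medians -0.96 and -1.25): Acta2, the contractile actin gene of myofibroblasts, Loxl2, a collagen crosslinking oxidase, and Cthrc1, a secreted collagen-associated protein. Acta2 fell by 2.15 ± 0.42 at 2 weeks (edgeR adjusted p = 0.0327) and by 2.93 ± 0.43 at 5 weeks (adjusted p = 0.0361), and Loxl2 by 1.54 ± 0.24 (adjusted p = 0.0240) and 1.25 ± 0.24 (adjusted p = 0.0467). Cthrc1 had 2.02 to 2.89 CPM in TAA, 0.128 to 0.266 CPM at the 2-week and 0 to 0.305 CPM at the 5-week time. The list's summed CPM spanned 627 to 940.1 for TAA, 387 to 589 for 2 weeks and 182 to 515 for 5 weeks of rhCYGB, so TAA did not overlap the rhCYGB groups. Spp1, the osteopontin gene, made up 402 of a mean sum of 789 CPM in TAA, and it is also in the cholangiocyte list, where it made up 402 of 618 CPM.

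Beside the marker counts below, 3453 and 2829 of all 14731 tested genes had an unadjusted edgeR p under 0.05 at 2 and 5 weeks. DESeq2 called 1662 of 14232 and 1127 of 15281 genes. Of 15 stellate cell markers edgeR called 0 at either time (unadjusted p under 0.05 for 5 and 6, DESeq2 1 and 4, medians -0.08 and -0.16). Their sums were 495 to 619.6, 501 to 560.1 and 341 to 559 CPM in TAA, 2 weeks and 5 weeks. Of 15 sinusoidal endothelial markers edgeR called 0 (unadjusted 3 and 1, DESeq2 1 and 0, medians -0.06 and -0.10), with sums of 275 to 308, 280.4 to 311 and 237 to 284 CPM. Of 15 vascular endothelial markers edgeR called 0 (unadjusted 2 and 3, DESeq2 1 and 0, medians -0.14 and -0.30), with sums of 237 to 258, 219.9 to 276 and 148 to 247 CPM.

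Smooth muscle and pericyte markers, 12 tested, had medians of -0.72 and -1.03 and 0 calls by edgeR (unadjusted 7 and 6, DESeq2 2 and 4), with sums of 118 to 141, 81.4 to 99.2 and 87.0 to 114 CPM, and Myocd at 0 in all libraries. The 15 portal fibroblast and mesothelial markers had medians of -0.54 and -1.09 and 0 calls (unadjusted 1 and 6, DESeq2 1 and 2), with sums of 71.4 to 118, 47.4 to 91.5 and 21.2 to 56.4 CPM. For 15 cholangiocyte markers the medians were -0.04 and -0.59 with 0 calls (unadjusted 1 and 0, DESeq2 1 and 0) and sums of 503 to 717, 412 to 535 and 275 to 519 CPM. Of 15 hepatocyte markers 0 were called at 2 weeks (unadjusted 6, DESeq2 2) and Cyp2e1, the P450 that activates TAA, rose at 5 weeks (log2 change 1.38 ± 0.21, adjusted p = 0.0361).

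Hepatocyte markers summed to 115699.7 to 127965 CPM in TAA, against 130179.5 to 166137 at 2 weeks and 131152 to 166998 at 5 weeks, so that the labelled tissue was plain in every library. Only 2 of 8 skeletal muscle markers passed the filter (medians 0.53 and -0.77, none called by edgeR or DESeq2, 1 and 0 at an unadjusted p under 0.05), and their list summed to at most 2.57 CPM, with Myh1 at 0. The part of each cell type's share of the tissue in the member values was not tested.

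In the cell type lists without a call the gene with the lowest p was as follows. The intermediate filament gene Nes, in the stellate list, had log2 changes of -0.91 ± 0.29 and -1.34 ± 0.29 at 2 and 5 weeks (edgeR adjusted p = 0.101 and 0.0578). The fibulin gene Fbln2, in the portal list, had -0.96 ± 0.31 and -1.32 ± 0.31 (adjusted p = 0.103 and 0.0669), and the sinusoidal transcription factor gene Gata4 had -0.44 ± 0.14 and -0.43 ± 0.14 (adjusted p = 0.0999 and 0.138). These genes, each picked for the lowest p of its list, were lower at both times without passing the test. The stellate and sinusoidal lists were mixed, while most portal markers lay below 0. Below 0 at 2 and 5 weeks were 8 and 10 of 15 stellate, 12 and 14 of 15 portal, and 9 and 11 of 15 sinusoidal markers.

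At 2 weeks the lowest p belonged to Podxl for vascular endothelium (-0.68 ± 0.18, edgeR adjusted p = 0.0720), the smooth muscle myosin gene Myh11 (-1.35 ± 0.40, adjusted p = 0.0854), the cadherin gene Cdh1 for cholangiocytes (-0.73 ± 0.22, adjusted p = 0.0894), the transthyretin gene Ttr for hepatocytes (0.68 ± 0.17, adjusted p = 0.0588) and Mylpf for skeletal muscle (0.66 ± 0.29, adjusted p = 0.204). At 5 weeks it belonged to Emcn (-0.58 ± 0.20, adjusted p = 0.166), Lmod1 (-1.90 ± 0.43, adjusted p = 0.0616), Sox9 (-0.58 ± 0.29, adjusted p = 0.311) and Actn3 (-1.86 ± 0.90, adjusted p = 0.297) in the same order without hepatocytes. Between 5 and 2 weeks edgeR called no gene of any of the 14 lists.

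Likeness over the 9 libraries was measured as the root mean square distance between centred log2 CPM values, a description that also reflects shared libraries. Col4a1 and Col4a2 were each other's nearest member at a distance of 0.11, against medians of 0.70 and 0.69 to 11866 other genes. Outside the set Col4a1 lay nearest Dpysl3 (0.14), the matricellular periostin gene Postn (0.17) and Gucy1a3 (0.17). Nearest to Col4a2 were Mrc2, an endocytic collagen receptor (0.11), Gdf6 (0.13) and Svep1 (0.14).

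Nearest to Col6a3 were Fstl1 (0.14), the fibrillin gene Fbn1 (0.14) and Emp1 (0.17), and to Col6a1 the procollagen N-proteinase gene Adamts2 (0.14), the collagen prolyl hydroxylase gene P3h3 (0.15) and Nfatc4 (0.16). Col6a2 lay nearest Fabp5 (0.14), Heyl (0.16) and Aebp1 (0.16). Col6a1 and Col6a2 were 0.18 apart. Col8a1, whose own spread was the widest at 1.22, lay nearest Flnc (0.44), Col5a2 (0.47) and Adamts12 (0.50), against a median of 1.25 over the genes compared.

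Col15a1 lay nearest Vstm4 (0.12), Arhgef6 (0.13) and Zc4h2 (0.13), and Col12a1 nearest the fractalkine receptor gene Cx3cr1 (0.15), Actg1 (0.18) and Spred3 (0.18). Col14a1, whose own spread was 0.25, lay nearest Amotl1, Syk and Snn (0.10 each). Col18a1 lay nearest the xylulokinase gene Xylb (0.06), the complement protease gene Masp2 (0.07) and Lrp3 (0.08). The own spread of Col18a1 was 0.21, and its median distance to the genes compared was 0.34. No member was nearer to Col18a1 than Col14a1, at 0.39, which is farther than that median.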

How the data were processed

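Per the labels' protocols, libraries were made from poly(A) RNA with a strand-marking kit and read from both ends. Tools listed in the submitters' processing notes are HISAT2 2.1.0, StringTie 1.3.4d and FastQC 0.11.7, with build mm10, and the step from StringTie to counts is not given in the sources used here. The authors deposited estimated counts per gene and per transcript, whole numbers per the file headers, and FPKM values made by the authors. Counts were used as deposited, and the design, which had assumed plain read counts, was kept. Genes passing filterByExpr (minimum count 10, minimum total 15) entered edgeR 4.0.16 (R 4.3.3) with TMM factors and its quasi-likelihood test, with 9 libraries in a single fit of 3 groups (6 residual degrees of freedom, common biological coefficient of variation 24.9%). SEs are the change over the square root of F, and approximate 95% intervals use the t distribution with 6 degrees of freedom. DESeq2 1.42.0 and limma 3.58.1 served for alternatives. The test was tried first on simulated counts. Ratios add 0.5 to each count. Within a group, no library pair agreed within counting noise, so none was merged.

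The members and the 14 gene lists (list symbols matched by name) were chosen with earlier results of these data known. Named genes are all members, up to 4 called genes of each list per comparison (otherwise the one with the lowest p), and the 3 genes nearest each member among those with a mean of at least 1 CPM. Sequences come from RefSeq tables (GRCm38.p6), exon overlaps from GENCODE M21. Figures were drawn with matplotlib 3.10.9.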

Additional observations from a re-analysis of the deposited data

How the results depend on the processing

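Under the alternatives to the reported fit (other scalings, tools, filters, units, a 2-group fit, removal of a length trend, libraries left out), no member changed sign against TAA in any setting. Genes called at 2 weeks numbered 1722 with library totals, 1662 with DESeq2, 1983 and 1639 with limma on log2(FPKM + 1) and log2(FPKM + 0.1), 1023 with only the groups compared, 12 without replicates 17, 18 and 23, and 1 to 1095 without single libraries, against 488. Members called lower at 2 weeks numbered 8, 7, 8 and 8 under the first 4 settings named, against 4. They numbered 1 with the length trend removed and 0 to 6 without single libraries. Upper quartile scaling, no filter and DESeq2 size factors left 4. At 5 weeks genes called numbered 504 (library totals), 77 (upper quartile), 1127 (DESeq2), 105 (no filter) and 1001 and 693 (limma), against 190. They numbered 1 (only the groups compared), 560 (length trend removed) and 0 to 240 (without single libraries). Members called lower at 5 weeks numbered 6 (library totals), 3 (upper quartile, where Col4a1 had an edgeR adjusted p of 0.0508), 8 (DESeq2) and 7 and 7 (limma), against 4. They numbered 0 (only the groups compared) and 0 to 3 (without single libraries). At 5 weeks against 2 weeks genes called numbered 756 (DESeq2), 5 (limma on log2(FPKM + 1)), 0 (only the groups compared), 7 (length trend removed) and 1 to 1889 (without single libraries), against 3. The share of calls that were higher was not stable under scaling, 291 of 488 at 2 weeks against 110 of 1722 with library totals, and 101 of 190 against 38 of 504 at 5 weeks. Apart from fewer or other samples and genes in a fit, the cause was not tested.

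At 5 weeks against 2 weeks small member differences, none of them called, changed sign. Library totals gave 0.05 for Col4a1, 0.03 for Col6a1 and 0.12 for Col6a3, and limma on log2(FPKM + 1) and log2(FPKM + 0.1) gave 0.02 and 0.02 for Col4a1, 0.02 and 0.02 for Col6a1 and 0.04 and 0.03 for Col6a3. Length trend removal gave -0.22 for Col18a1 and -0.22 for Col14a1. Without replicates 17, 18 and 23 (a single 2-week library assumed to vary like the rest) values were 0.26 for Col4a1, 0.31 for Col4a2, 0.27 for Col6a1, 0.28 for Col6a2, 0.75 for Col6a3 and 0.16 for Col12a1. Without single libraries the ranges were -0.34 to 0.12 for Col4a1, -0.46 to 0.05 for Col4a2, -0.02 to 0.13 for Col18a1, -0.40 to 0.21 for Col6a1, -0.50 to 0.02 for Col6a2, -0.45 to 0.35 for Col6a3 and -0.16 to 0.20 for Col14a1.

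The largest difference between group means of the log2 ratio of Col15a1 to Col18a1 was 1.34. It was 1.28 without replicates 17, 18 and 23, and 1.26 to 1.41 without single libraries. Without single libraries it was 0.51 to 0.66 for Col6a3 to Col6a1, 1.53 to 1.94 for Col18a1 to Col4a1 (exact permutation, adjusted p = 0.0429 without replicate 23 and 0.0321 without replicate 28) and 4.55 to 9.66 percentage points for the second Col6a2 transcript. Fits of only the groups compared gave 6 members called lower at 2 weeks. No paired analysis was possible because the groups share no replicate number. Col8a1, at 15 to 298 reads a library, and the upstream Col18a1 transcript are limited by depth.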
